A study of Bos taurus with 16 samples.

Results

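The genes described here encode the membrane proteins and hydrolases of the lysosome and the subunits of its proton pump, the vacuolar H+-ATPase (V-ATPase). They were taken by name from the annotation of a bovine oligonucleotide array. A probe was a member if its gene name, or the symbol in brackets in its description, began with ATP6V or ATP6AP or was 1 of 24 listed lysosomal genes. This gave 41 genes and 44 probes of the 21475 probes of the array, 18 of the genes being V-ATPase genes. Of the 24 listed genes 23 were found, and 3 genes had 2 probes. The brightest probe stood for each gene, and the rule reads no difference between tissues.

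RNA was measured in CD14+ cells sorted from the interplacentomal endometrium and from the blood of 4 pregnant cows slaughtered at days 164, 239, 242 and 248 of pregnancy, called animals 1 to 4 in that order. CD14 is the lipopolysaccharide co-receptor carried by monocytes and macrophages. Both tissues of an animal shared each 2-colour array, and every animal had 2 arrays as technical replicates, so that there were 8 channels for each tissue. The dyes were exchanged between the 2 arrays of animals 1, 2 and 4, whereas in animal 3 endometrium carried Cy5 and blood Cy3 on both, so that a dye effect does not cancel in the ratios of animal 3. Values are log2 normalized intensities, averaged over the 2 arrays of an animal, and log2 ratios are endometrium minus blood within an animal. All 4 animals were pregnant, and the RNA had been amplified before labeling. The comparison asks how CD14+ cells of the pregnant uterus differ from those in the circulation.

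The lysosome is the acidic compartment in which the cell degrades material taken up by phagocytosis, endocytosis and autophagy. The V-ATPase acidifies it. Its V1 domain, in the cytosol, hydrolyzes ATP, and its V0 domain, in the membrane, carries protons inward. Several subunits exist as widely expressed isoforms and as isoforms known from particular tissues such as kidney, epididymis and bone. The hydrolases work at the low pH the pump maintains, and macrophages, which clear dead cells and debris, are known for a large lysosomal compartment.

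The level of the sorting marker set animal 1 apart from the others in both tissues. The log2 level of CD14 in blood was 16.12 in animal 1, against 5.76, 8.85 and 6.94 in animals 2, 3 and 4, and the probe was well above background in all 16 channels. In the endometrium it was 14.03, 6.07, 9.5 and 7.38. The 9 monocyte and macrophage markers had a summed linear intensity of 358900 in the blood of animal 1 and of 9200 to 15140 in the blood of the other animals, against 30510 to 109100 in the endometrium of animals 2 to 4 and 330400 in that of animal 1. Of the 5 B cell markers, which summed to between 24200 and 160800 in blood and between 10680 and 59220 in endometrium, 0 had a mean ratio above 0. Of the 8 epithelial markers 8 had positive ratios in 4 of 4 animals, and their sum was 37090 to 352800 in endometrium and 1785 to 7398 in blood. For the 8 trophoblast markers these ranges were 40410 to 140800 and 1542 to 3424. Of these markers 6 were tested, and 5 had positive ratios in 4 of 4 animals. The other markers of this list, CDX2 and PAG2, were well above background in 0 channels. For the 8 markers of stroma and vessels the ranges were 7504 to 240900 and 8299 to 107900. The natural killer and T cell markers summed to 51880 to 222200 in endometrium and 6995 to 83000 in blood, and the 3 granulocyte markers to 579.9 to 19080 and 2022 to 212000. The part of all these markers in the differences below was not tested. In such preparations fewer cells of a type and less RNA per cell cannot be told apart.

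The arrays measured each gene through an oligonucleotide of 60 bases. The probes below are those on which the results turn: the 3 members with the largest ratios, and the pairs of probes for the same gene whose ratios differed in sign or by over 1.5 log2 units. They are written 5′ to 3′ as the scanner files give them, in lower case because no base is singled out. The genomic positions of the probes were not analysed here.
CD63: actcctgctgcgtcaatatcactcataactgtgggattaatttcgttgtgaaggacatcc
ATP6V1B1: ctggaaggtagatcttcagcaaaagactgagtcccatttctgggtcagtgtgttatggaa
ATP6V0D2: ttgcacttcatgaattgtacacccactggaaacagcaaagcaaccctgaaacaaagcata
ATP6V1C2, the member probe: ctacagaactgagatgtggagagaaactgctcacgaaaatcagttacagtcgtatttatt
ATP6V1C2, a probe outside the rule: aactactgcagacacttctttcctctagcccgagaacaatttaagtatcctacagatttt
ATP6V1H, brightest probe: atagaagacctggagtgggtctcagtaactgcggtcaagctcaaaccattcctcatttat
ATP6V1H, dimmer probe: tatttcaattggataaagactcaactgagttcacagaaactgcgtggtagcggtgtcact
ATP6V1B2, the member probe: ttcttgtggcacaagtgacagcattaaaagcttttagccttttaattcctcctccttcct
ATP6V1B2, a probe outside the rule: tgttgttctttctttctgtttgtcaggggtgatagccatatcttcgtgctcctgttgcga
LAMP2, brightest probe: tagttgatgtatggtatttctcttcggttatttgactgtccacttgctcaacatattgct
LAMP2, dimmer probe: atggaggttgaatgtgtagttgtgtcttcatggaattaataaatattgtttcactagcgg
The longest run of bases shared by the probes of a pair was 7 for ATP6V1C2, 7 for ATP6V1H, 5 for ATP6V1B2 and 6 for LAMP2, so the probes of a pair had no long stretch in common. Between member probes of different genes the longest shared run was 10.

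Of the 41 members 40 were tested, since the scanner had marked them well above background in 4 or more of the 8 channels of a tissue. No member passed limma's adjusted p of at most 0.05 with a fold change over 2, in either direction. Over all 16653 probes tested, 1.23% passed with endometrium higher and 0.120% with blood higher. When the same threshold was set on the unadjusted p, 8 of the 40 members passed with endometrium higher and 0 with blood higher, against 7.98% and 8.05% of all probes. The methods' analysis of variance gave 0 members after adjustment and 4 before it. In 4 of 4 animals endometrium was higher for 10 of 40 members, against 9.82% of all probes, and blood for 3 of 40, against 15.2%. The groups' levels did not overlap for 1 member, against 6.07% of all probes. The median log2 ratio was 0.32 over the members and -0.14 over all probes tested.

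The pump and the rest of the list had different ratios. Of the 23 members that are not V-ATPase genes 18 had a mean ratio above 0, and their median log2 ratio was 0.77. Of the 17 tested V-ATPase members 6 did, and their median was -0.43. Over all probes tested 43.26% had a mean ratio above 0, against 35.29% of the V-ATPase members and 78.26% of the others. The median over all probes was -0.14. Under the alternatives run the median of the V-ATPase members lay between -0.44 and -0.07, the latter without animal 3, and was -0.16 without animal 4 and -0.19 with intensities that were background-corrected by normexp, with which that of all probes was -0.02. That of the other members lay between 0.49, without animal 3, and 1.07, without animal 1. The medians of the V-ATPase members in animals 1 to 4 were -0.50, 0.48, 0.27 and -0.28, and those of the other members were 0.15, 0.89, 1.05 and 0.32. In each animal the other members had the higher median. No test was applied to this difference, since the genes of a list are not replicates.

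**Figure D1:**
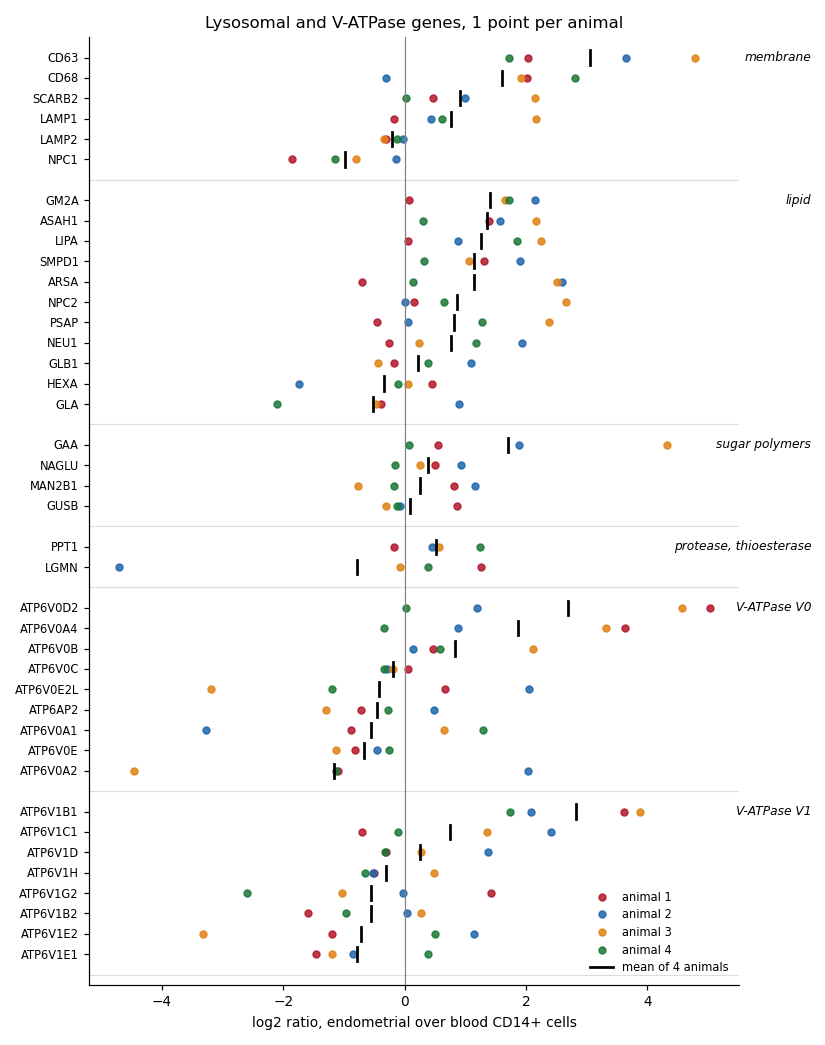
Log2 ratio of endometrial over blood CD14+ cells for the 40 members tested, by role, with 1 point for each of the 4 animals and a bar at their mean. CD63, ATP6V1B1 and ATP6V0D2 lie farthest to the right, with means of 3.05, 2.83 and 2.70, while 11 of the 17 tested V-ATPase members have means below 0.

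Among the 6 membrane proteins, 4 had mean ratios above 0 and 2 below, and 2 were past the unadjusted p with the fold. CD63, a tetraspanin of late endosomes and lysosomes that reaches the cell surface when these organelles fuse with it, had the largest ratio of all members. Its log2 level was 16.54, 16.22, 15.84 and 14.35 in the endometrium of animals 1 to 4, and 14.51, 12.57, 11.05 and 12.63 in their blood. The endometrial level of animal 4 lay just below the blood level of animal 1, and each animal was higher in endometrium. The log2 ratio was 3.05 ± 1.43 (SD, n = 4 animals), which is 8.27-fold, at an adjusted p of 0.0992 in limma. Under the alternatives run the adjusted p lay between 0.0354 and 0.491, and it was under the threshold in 2 of them, with a term for the slide (0.0442) and with one for the dye (0.0354). These 2 fits took each array as an observation, with the animal as a random block, where the main fit took 1 ratio per animal. A probe described as similar to CD63 antigen (LOC539562), which the rule did not take and which was picked after its values were seen, had a log2 ratio of 2.70 ± 1.93 (SD, n = 4 animals) and was also higher in 4 of 4 animals.

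CD68, the glycosylated lysosomal membrane protein by which macrophages are commonly recognized, had log2 levels of 14.58, 7.21, 10.55 and 11.60 in the endometrium of animals 1 to 4. In blood they were 12.57, 7.51, 8.64 and 8.79. The levels of animal 1 were the highest of each tissue, and animal 2 went the other way from the rest, with a ratio of -0.31 against 1.91 to 2.81. The mean log2 ratio was 1.61 ± 1.34 (SD, n = 4 animals), 3.05-fold, with an adjusted p of 0.275.

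NPC1, the membrane transporter that exports cholesterol from the lysosome, was lower in the endometrium in 4 of 4 animals. Its log2 levels were 13.27, 12.15, 12.72 and 12.01 in endometrium and 15.13, 12.29, 13.52 and 13.17 in blood, and the ranges overlapped. The mean ratio was -0.99 ± 0.71 (SD, n = 4 animals), 1.98-fold higher in blood, with an adjusted p of 0.368. Its soluble partner NPC2, which hands cholesterol to it, had a ratio of 0.86, positive in 3 of 4 animals.

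LAMP1 and LAMP2, the most abundant glycoproteins of the lysosomal membrane, had ratios of 0.76, with 3 of 4 animals higher in endometrium, and -0.20, with 0 of 4. The second probe of LAMP2 had a ratio of 0.89 and 4 of 4 animals higher, so that the 2 probes of the gene pointed in opposite directions. SCARB2, a glycoprotein of the lysosomal membrane, had a ratio of 0.91 and was higher in 4 of 4 animals. The adjusted p of these 4 probes lay between 0.435 and 0.863.

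The enzymes and activators of lipid degradation were the largest group outside the pump. Of 11 members 9 had mean ratios above 0, 4 had positive ratios in 4 of 4 animals and 0 had negative ones in all, and 3 were past the unadjusted p with the fold. ASAH1, acid ceramidase, had log2 levels of 16.34, 15.07, 14.88 and 13.67 in the endometrium of animals 1 to 4 and of 14.94, 13.50, 12.72 and 13.37 in their blood. Animal 1 was the highest in both tissues, and its blood lay above the endometrium of animals 3 and 4. This gave a log2 ratio of 1.36 ± 0.78 (SD, n = 4 animals), 2.56-fold, with an adjusted p of 0.267.

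SMPD1, acid sphingomyelinase, which makes the ceramide that ASAH1 cleaves, had log2 levels of 14.81, 15.97, 14.36 and 13.92 in endometrium and 13.50, 14.08, 13.30 and 13.60 in blood. Only the endometrium of animal 4 fell within the range of blood. Its mean ratio was 1.14 ± 0.65 (SD, n = 4 animals), 2.21-fold, with an adjusted p of 0.31.

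GM2A, the activator that lifts ganglioside GM2 out of the membrane for hydrolysis, had log2 levels of 14.92, 11.92, 12.83 and 11.33 in endometrium and 14.86, 9.77, 11.17 and 9.61 in blood. The level was alike in both tissues of animal 1, with a ratio of 0.06, and the ratio was 1.66 to 2.15 in the other animals. The mean was 1.40 ± 0.92 (SD, n = 4 animals), 2.63-fold, with an adjusted p of 0.271. HEXA, the alpha subunit of the hexosaminidase that works with GM2A, had a ratio of -0.34 with 2 of 4 animals higher in endometrium.

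LIPA, lysosomal acid lipase, had a ratio of 1.25, positive in 4 of 4 animals, and just missed the unadjusted p. ARSA, arylsulfatase A, had a ratio of 1.13, PSAP, the precursor of the saposins, 0.81, and NEU1, a sialidase, 0.77, each with 3 of 4 animals higher in endometrium. The galactosidases GLB1 and GLA had ratios of 0.21, with 2 of 4 animals higher, and -0.52, with 1 of 4. The adjusted p of these 6 genes lay between 0.318 and 0.871.

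Among the enzymes that degrade glycogen, glycoproteins and glycosaminoglycans, 4 of 4 had mean ratios above 0 and 0 were past the unadjusted p with the fold. GAA, the acid alpha-glucosidase that degrades glycogen, had log2 levels of 13.16, 9.59, 14.19 and 10.44 in the endometrium of animals 1 to 4 and of 12.61, 7.71, 9.87 and 10.37 in their blood. Its mean ratio of 1.70 ± 1.90 (SD, n = 4 animals), 3.26-fold, came mostly from animal 3, where it was 4.32, while in animal 4 it was 0.07. The adjusted p was 0.326, and the ratio was 0.83 without animal 3 and 1.69 with a dye term. NAGLU and GUSB, which degrade heparan sulfate and other glycosaminoglycans, had ratios of 0.38, with 3 of 4 animals higher in endometrium, and 0.09, with 1 of 4. MAN2B1, lysosomal alpha-mannosidase, had 0.26 with 2 of 4.

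**Figure D2:**
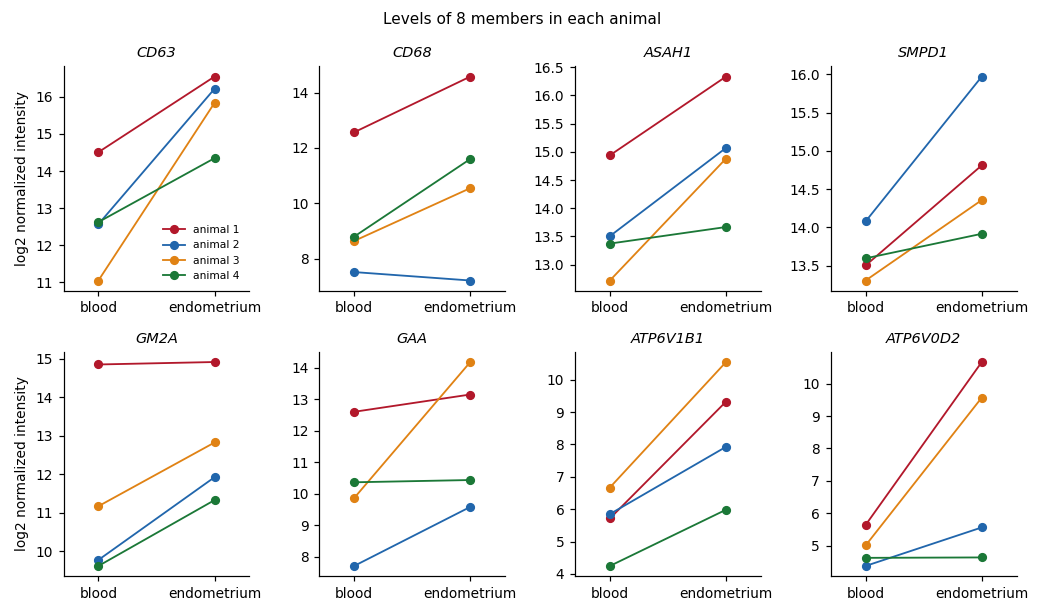
Log2 normalized intensity of 8 members in the blood and the endometrium of each animal, 1 panel per gene with its own axis that does not start at 0, and a line joining the tissues of an animal. All 4 lines go up for CD63, from levels of 11.05 to 14.51 in blood, whereas the line of animal 2 goes down for CD68 and that of animal 4 is level for ATP6V0D2.

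Legumain (LGMN), the cysteine protease that activates cathepsins, showed 1 animal apart from the others. Its log2 level in endometrium was 16.46, 10.86, 14.13 and 15.36 in animals 1 to 4, and in blood 15.21, 15.57, 14.21 and 14.99. The ratio was -4.71 in animal 2 and -0.08 to 1.25 in the others. The mean of -0.79 ± 2.67 (SD, n = 4 animals) therefore had its sign from animal 2, and without it the ratio was 0.52. PPT1, the thioesterase that removes palmitate from proteins, had a ratio of 0.52 with 3 of 4 animals higher in endometrium. TPP1, the tripeptidyl peptidase of the list, had no probe under the rule. A probe whose identifier names it, taken up after the values were seen, had a ratio of 1.83 ± 1.68 (SD, n = 4 animals) and an adjusted p of 0.274, and was higher in 4 of 4 animals.

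Of the V1 domain of the V-ATPase 9 members were found and 8 tested. The mean ratio was above 0 for 3 and below 0 for 5, and 1 was past the unadjusted p with the fold. ATP6V1B1, the B1 isoform of the nucleotide-binding B subunit, best known from the acid-secreting cells of kidney and inner ear, had the lowest p of all members. Its log2 level was 9.32, 7.93, 10.55 and 5.98 in the endometrium of animals 1 to 4 and 5.71, 5.85, 6.67 and 4.25 in blood. Only the endometrium of animal 4 lay within the range of blood. The probe was well above background in 8 of 8 endometrial and 6 of 8 blood channels. The log2 ratio was 2.83 ± 1.07 (SD, n = 4 animals), 7.09-fold, with an adjusted p of 0.0825. Under the alternatives run the adjusted p lay between 0.0442, with probes well above background in all 8 channels of a tissue, and 0.468. With normexp the ratio was 1.23, with an adjusted p of 0.269. ATP6V1B2, the widely expressed B2 isoform, had a ratio of -0.56 with 2 of 4 animals higher in endometrium, and its probe outside the rule had 0.41.

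The C subunit gave another pair of isoforms. ATP6V1C1, its widely expressed form, had a ratio of 0.74 with 2 of 4 animals higher in endometrium. The member probe of ATP6V1C2, a form known from kidney and lung, was well above background in 0 of 16 channels and was not tested. The other probe of the gene printed above lies outside the rule, because only the reference table gives it that symbol, and it was taken up after its values were seen. Its log2 level was 9.67, 9.90, 14.38 and 9.77 in the endometrium of animals 1 to 4 and 5.66, 6.96, 9.5 and 5.45 in blood. The levels of the tissues did not overlap. The log2 ratio was 4.04 ± 0.82 (SD, n = 4 animals), 16.4-fold, with an adjusted p of 0.0154 in limma, and it was the 1 V-ATPase probe, inside or outside the rule, that was called. With normexp the ratio was 2.55 and the adjusted p 0.259. In the same animals the 8 epithelial markers had ratios of 2.05 to 6.53, and the 6 trophoblast markers tested had ratios of -0.48 to 5.45. The part of these markers in this difference was not tested.

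The E subunit, a stalk of the V1 domain, was among the 6 lowest ratios with both of its isoforms. ATP6V1E1 had log2 levels of 14.25, 14.43, 14.34 and 15.04 in endometrium and of 15.72, 15.30, 15.54 and 14.66 in blood. The ratio of -0.79 ± 0.82 (SD, n = 4 animals), 1.73-fold higher in blood, had an adjusted p of 0.482 and was negative in 3 of 4 animals, animal 4 being the exception. ATP6V1E2, known from testis, had levels of 7.53, 9.85, 3.1 and 9.48 in endometrium and 8.74, 8.71, 6.43 and 8.97 in blood. It was higher in endometrium in animals 2 and 4 and in blood in animals 1 and 3. Its mean ratio of -0.72 ± 2.00 (SD, n = 4 animals) had an adjusted p of 0.693, and the sign turned to 0.02 with normexp and to 0.14 without animal 3.

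The remaining V1 members were ATP6V1D with a ratio of 0.25 and 2 of 4 animals higher in endometrium, ATP6V1G2, known from neurons, with -0.56 and 1 of 4, and ATP6V1H with -0.30 and 1 of 4. The dimmer probe of ATP6V1H, the regulatory H subunit, had a ratio of -1.91 ± 1.37 (SD, n = 4 animals), 3.75-fold higher in blood, with an adjusted p of 0.229, and was lower in endometrium in 4 of 4 animals. With normexp it was -1.08. The probes that the reference table names ATP6V1A, the catalytic A subunit, and ATP6V1G1 lie outside the rule. Their ratios were -0.84 and -0.73, both negative in 4 of 4 animals, with adjusted p of 0.466 and 0.456 in limma. Not every outside probe had a clear direction. Those for ATP6AP1, ATP6S14 and ATP6AP1L had ratios of 0.13, 0.11 and -0.04. For each of these genes 2 animals had a positive ratio and 2 a negative one.

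Of the V0 domain and its accessory protein 9 members were found and tested, with 3 mean ratios above 0, 6 below 0, and 2 past the unadjusted p with the fold. ATP6V0D2, the d2 isoform known from osteoclasts, macrophages and kidney, had log2 levels of 10.67, 5.56, 9.57 and 4.64 in the endometrium of animals 1 to 4 and of 5.64, 4.38, 5.01 and 4.63 in blood. The endometrium of animals 1 and 3 stood far above all blood samples, that of animal 2 within the range of blood, and animal 4 had a ratio of 0.01. The probe was well above background in 6 of 8 endometrial and 4 of 8 blood channels. The log2 ratio was 2.70 ± 2.48 (SD, n = 4 animals), 6.49-fold, with an adjusted p of 0.241, and it was 1.22 with normexp. The widely expressed ATP6V0D1, whose probe carries an older symbol outside the rule, had a ratio of -0.30 with 1 of 4 animals higher in endometrium.

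The a subunit anchors the proton channel and directs the pump to a membrane. ATP6V0A4, its kidney form, had log2 levels of 8.27, 11.37, 13.17 and 9.71 in endometrium and 4.65, 10.49, 9.85 and 10.05 in blood. The ratio of 1.87 ± 1.92 (SD, n = 4 animals), 3.66-fold, had an adjusted p of 0.3 and rested on animals 1 and 3, with 3.62 and 3.32, against 0.88 and -0.34 in animals 2 and 4. The second probe of the gene had a ratio of 1.08. With normexp the ratios were 1.1 and 0.24.

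ATP6V0A2, a form of the a subunit found in Golgi and endosomes, had the lowest mean of all members. Its levels were 5.94, 9.06, 3.44 and 6.87 in endometrium and 7.04, 7.02, 7.91 and 8.0 in blood. The ratio ran from -4.47 in animal 3 to 2.04 in animal 2. The mean of -1.17 ± 2.66 (SD, n = 4 animals), 2.25-fold higher in blood, had an adjusted p of 0.589 and was -0.16 with normexp, -0.07 without animal 3 and -1.13 with a dye term. ATP6V0A1 had a ratio of -0.56 with 2 of 4 animals higher in endometrium. TCIRG1, which encodes the a3 form of lysosomes and osteoclasts and belongs to the wider list below, had -0.08.

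**Figure D3:**
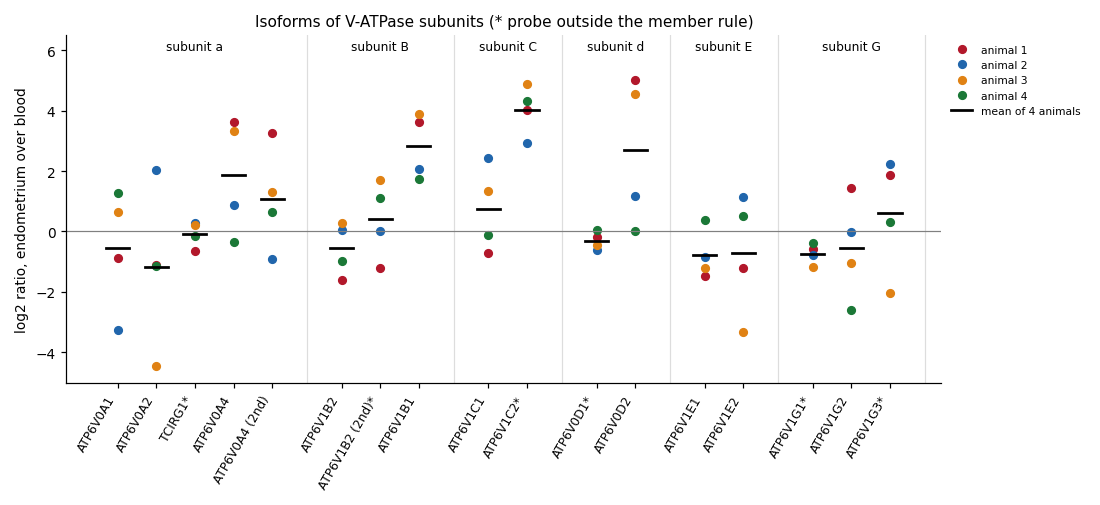
Log2 ratio of endometrium over blood for the isoforms of the V-ATPase subunits a, B, C, d, E and G, 1 point per animal and a bar at the mean of 4 animals; an asterisk marks a probe outside the member rule and 2nd the dimmer probe of a gene. The bars of ATP6V1B1, ATP6V0D2, ATP6V0A4 and the ATP6V1C2 probe outside the rule stand at 1.87 to 4.04, with the dimmer ATP6V0A4 probe at 1.08, while those of ATP6V1E2 and ATP6V1G2, also known from particular tissues, stand at -0.72 and -0.56. That of ATP6V1G3, a probe outside the rule, stands at 0.60. ATP6V1B2 stands at -0.56 and, by its dimmer probe, at 0.41; the ATP6V1C2 member probe was not tested and is not drawn.

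ATP6V0E, a small subunit of the membrane domain, was the member whose levels did not overlap between tissues. They were 14.40, 13.98, 13.39 and 14.33 in the endometrium of animals 1 to 4 and 15.22, 14.43, 14.52 and 14.59 in blood. The gap between the groups was narrow. The ratio was -0.67 ± 0.39 (SD, n = 4 animals), 1.59-fold higher in blood, with an adjusted p of 0.5. The related ATP6V0E2L had a ratio of -0.43 with 2 of 4 animals higher in endometrium. ATP6V0C, whose product forms the ring that turns with each proton, had -0.19 with 1 of 4, and ATP6V0B, the other ring subunit measured, had 0.82 with 4 of 4. ATP6AP2, the accessory protein also known as the prorenin receptor, had -0.46 with 1 of 4.

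The members also varied with the animal. Animal 1 had the highest blood level of the 4 animals for 28 of the 40 tested members, against 31.0% of all probes, and the highest endometrial level for 25 of 40, against 19.0%. Among the members outside the V-ATPase these counts were 18 and 17 of 23, and among the V-ATPase members 10 and 8 of 17. The median member lay 1.57 log2 units above the mean of the other 3 animals in the blood of animal 1 and 0.97 above it in its endometrium, whereas over all probes these medians were -0.16 and -0.23. LIPA had a blood level of 15.03 in animal 1 and of 8.76 to 10.63 in the others. NAGLU had 11.63 there and 7.87 to 8.60 in the others. Animal 1 was also the animal with the high CD14 and the high monocyte and macrophage markers given above, and the animal earliest in pregnancy. In both tissues it had the highest sum of the stroma and vessel markers and the lowest of the natural killer and T cell markers. The granulocyte markers summed to 212000 in its blood, against 2022 to 5475 in the blood of the other animals. With 1 such animal, its day, its sorted cells and the animal itself cannot be told apart.

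**Figure D4:**
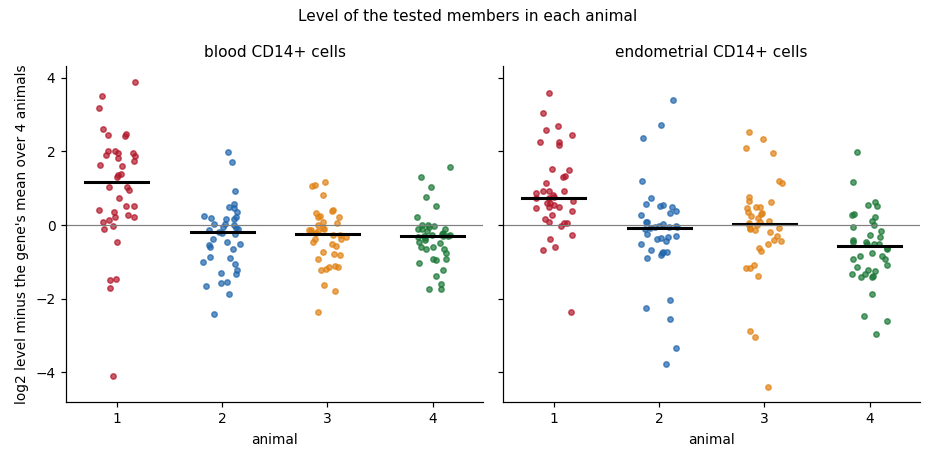
Log2 level of each of the 40 tested members minus the mean of that member over the 4 animals, for blood (left) and endometrium (right), 1 point per gene and a bar at the median. The median of animal 1 is the highest in both tissues, at 1.18 in blood and 0.73 in endometrium.

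Without animal 1 the comparison rests on 3 animals. Then 15 of the 40 members were higher in endometrium in 3 of 3 animals, against 15.6% of all probes, and 12 of these were among the 23 members outside the V-ATPase. Past the unadjusted p with the fold were 4 members, CD63, ATP6V1B1, GM2A and LIPA, with ratios of 3.38, 2.56, 1.84 and 1.65, where 6.32% of all probes passed in this direction; 0 members passed with blood higher, against 6.30%. ATP6V0D2 and ATP6V0A4 were at 1.92 and 1.29. The median over the members outside the V-ATPase was 1.07 and that over the V-ATPase members -0.28.

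Other lysosomal genes were counted from a wider list. Of its 83 genes 81 were tested, 0 were called by limma's adjusted p with the fold, and at the unadjusted p with the fold 9 favoured endometrium and 3 favoured blood, against the 7.98% and 8.05% of all probes. No adjusted p of these genes was under 0.107. Those past the unadjusted p with positive ratios included GPNMB, a macrophage glycoprotein, with 3.90 ± 2.71 (SD, n = 4 animals) and -0.12 in animal 2, and ACP5, tartrate-resistant acid phosphatase, with 3.16 ± 1.61 (SD, n = 4 animals). RRAGD and LAMTOR2, which signal nutrient state at the lysosome, had ratios of 2.52 and 1.57, but RRAGD was at -1.09 in animal 2 and at 0.92 with normexp. The hydrolase CTSA had 1.49, the transporters SLC17A5 and ABCB9 had 1.39 and 1.36, and the tethering subunit VPS33A had 1.23. Past it with negative ratios were the hyaluronidases HYAL2 (-1.92) and HYAL1 (-1.67) and M6PR (-1.44), the receptor that sorts hydrolases to lysosomes. The median over the list was -0.01. Among 8 cathepsins, the lysosomal proteases, CTSL was called, with a ratio of 5.62 ± 1.04 (SD, n = 4 animals) and an adjusted p of 0.00815. With normexp its ratio was 5.06 and the adjusted p 0.0924, so that the call was lost. CTSZ had 2.40 with an adjusted p of 0.0865.

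The ratios of dim members depended on how the background was treated. The authors' values and the normexp values were close for members well above background in all 16 channels, such as CD63 with 3.05 and 2.99. They differed for members that were not, such as ATP6V1B1 with 2.83 and 1.23.

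**Figure D5:**
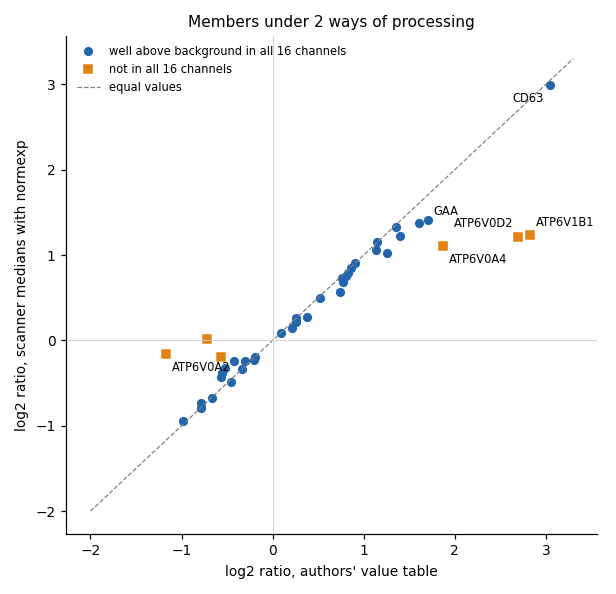
Log2 ratio of the 40 tested members in the authors' value table (horizontal) and in scanner medians corrected by normexp (vertical); circles are the 34 members well above background in all 16 channels, squares the others, and the dashed line marks equal values. Circles follow the line, while the squares of ATP6V1B1, ATP6V0D2 and ATP6V0A4 fall to 1.23, 1.22 and 1.1.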

How the data were processed

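The authors deposited, for each of 16 samples, a scanner file of spot intensities in both dyes, with the median intensity of spot and local background and an intensity processed by Agilent Feature Extraction (9.5 per the labels, 10.5.1.1 per the file headers). They also deposited a table of log2 values, which they had normalized by lowess in each array and then by quantiles, and these log2 values were analysed here. Each column of that table ranked like the labeled dye of the scanner file of the other technical replicate of its animal (Spearman rho of at least 0.9998, at most 0.9961 for any other channel of the animal), and scanner files were read so. Of the spots 65.2% to 82.9% were well above background, and 0 were saturated. Array number limits precision.

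Probes were joined by feature number, and spots of a probe averaged. A log2 ratio per animal was tested against 0 with limma 3.58.1 (R 4.3.3), with Benjamini-Hochberg adjustment over 16653 probes. Fits were tested on simulated data. An exact permutation test over 4 animals cannot give a p under 0.125. Samples were grouped by tissue, and paired by the animal number in the labels. Within an animal, blood and endometrium deviated together from their means (r of 0.24 to 0.63).

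Named with every value were the 6 largest and 6 smallest ratios and each member at an unadjusted p of at most 0.05 with a fold over 2. Other members are given by ratio and direction. Of the wider list those past the same bounds are named, except 1 that is not reported here. Members and lists were chosen with earlier results of these data known. The reference gene table (ARS-UCD2.0) gave the same symbol for 34 of the 41 members, another for 2 (ATP6V0E1 for ATP6V0E, ATP6V0E2 for ATP6V0E2L) and had no entry for 5. PAG1 was dropped from the trophoblast markers, because the array uses that symbol for another gene. Alternatives changed the source of the values, centring, the filter on dim probes, the pairing, slide and dye terms, arrays, animals, probes and test.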

Additional observations from a re-analysis of the deposited data

Results flagged for a closer look

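Among 70 groups of 4 animals examined, 3 held a value far from the other 3 (by Dixon's criterion), where chance flags about 1 in 20 groups. The blood level of ATP6V0A4 was 4.65 in animal 1, below 9.85 to 10.49 in the others. The blood level of ATP6V1E2 was 6.43 in animal 3, below 8.71 to 8.97. The log2 ratio of ATP6V1H was 0.48 in animal 3, above -0.66 to -0.50 in the others.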

How the results depend on the processing

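Over all probes 224 were called; this count was 11 with scanner medians and normexp, 123 with no filter on dim probes, 38 with no replicate block in place of the pairing by animal, 0 with the methods' analysis of variance after adjustment (1229 at its unadjusted p with the fold), and 0 to 181 when an animal was left out, 0 without animal 4, 64 without animal 1 and 95 without animal 3. The median log2 ratio of all probes moved from -0.14 to -0.02 with normexp. The count of members called, 0, became 1 under 3 of 16 alternatives. ATP6V1B1 was called with probes well above background in all 8 channels of a tissue. CD63 was called with a slide term and with a dye term, both fitted to single arrays with the animal as a random block. The count was 0 without each animal in turn. The unadjusted count of members, 8, ran from 2 to 10, with 2 with no replicate block and 2 without animal 3, 4 without animal 1, and 4 with the analysis of variance. Of the wider list 0 were called, and 0 to 1 when an animal was left out, GPNMB without animal 2. LGMN reversed to 0.52 without animal 2 and lay between -1.47 and 0.52 when an animal was left out. ATP6V1E2 reversed to 0.022 with normexp and lay between -1.34 and 0.14 when an animal was left out, 0.14 without animal 3. Of the 15 members named in full, those other than LGMN and ATP6V1E2 kept their direction under every alternative run, with CD63 between 2.47 and 3.49 and ATP6V1B1 between 1.23 and 3.19. The median over all members lay between 0.26 and 0.45. The cause of these shifts was not tested.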
